A study of Homo sapiens with 8 samples.

Results

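The subunits of the mitochondrial respiratory chain and of the ATP synthase were followed in SW620 and SW480, established human colorectal cancer cell lines that the labels place at Dukes' types C and B. Members were taken by gene symbol, which gave 89 of the 40693 symbols in the deposited tables. Of these, 76 are encoded in the nucleus and 13 in the mitochondrial genome. By complex there were 44 members for complex I, 4 for complex II, 10 for complex III, 14 for complex IV and 17 for complex V. The list rests on symbols alone, and where a symbol had more than 1 entry the one with the largest summed count was used.

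Total RNA was sequenced from 3 libraries of SW620 carrying a hairpin RNA against FOXA2 (shFOXA2), 3 of SW620 carrying a control hairpin (shNC), 1 of untreated SW620 and 1 of untreated SW480. FOXA2 encodes a forkhead transcription factor of endoderm and liver. Both hairpins were expressed from a lentiviral vector with a puromycin resistance and mCherry cassette, so the shNC cells share the virus and the selection, and each hairpin group was a stably selected population of SW620 cells. The sample titles point to the first of the FOXA2 hairpins named in the labels without spelling it out, and the other hairpin was not analysed here. The study's title concerns reprogrammed transcription and liver metastasis. No label states that replicates of a hairpin were grown as separate cultures, so p-values measure only the spread between these libraries, which may be technical.

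Oxidative phosphorylation passes electrons from NADH through complex I, or from succinate through complex II, to ubiquinone, then through complex III and cytochrome c to complex IV, which reduces oxygen. Complexes I, III and IV pump protons across the inner mitochondrial membrane, and complex V, the ATP synthase, uses the proton gradient to make ATP. Complexes I, III, IV and V mix nuclear with mitochondrially encoded subunits, whereas complex II is wholly nuclear. Mitochondrial genes are transcribed from long polycistronic precursors and then cut apart, while the nuclear subunits are separate genes on many chromosomes.

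Total counts over genes were 12068790, 7478411 and 10012844 in shFOXA2 replicates 1 to 3, 13076566, 12941094 and 12133652 in shNC replicates 1 to 3, 95935348 in SW620 and 72323506 in SW480. Chi-square per degree of freedom between replicates of a group was 1.62 to 4.27, above counting noise. Its 4 highest values all involved replicate 1 of either group, so replicate 1 stood apart from replicates 2 and 3 in each. Levels are given as CPM, counts scaled to a common library size after TMM scaling. That scaling was done separately for the hairpin libraries and for the untreated lines. The CPM of cell type markers are scaled by total counts alone. FOXA2 had 30.3, 29.3 and 22.2 CPM in shFOXA2, against 52.5, 49.0 and 51.9 CPM in shNC. This is 1.87-fold lower (log2 fold change -0.91, SE 0.09, edgeR quasi-likelihood adjusted p = 6.88e-10) and a partial reduction. In the untreated lines FOXA2 had 7882 counts in SW620 and 319 in SW480.

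The libraries were checked for other cell types with lists of marker genes. Markers of colorectal epithelium summed to 8211 to 8584 CPM in shFOXA2, 8290 to 8783 CPM in shNC, 6072 CPM in SW620 and 6242 CPM in SW480. KRT8 alone had 4368 to 4620 CPM in shFOXA2 and 4501 to 4834 CPM in shNC, so these sums say little of the weaker markers. Of the 10 tested, 4 were higher and 3 lower in shFOXA2, against 19.2% and 19.8% of all tested genes. Markers of fibroblast and endothelium summed to 36.3 to 65.4 CPM in shFOXA2 and 51.9 to 59.1 CPM in shNC, with COL1A2 and COL3A1 at 0 in every library. Of the 4 tested on this list, 2 were higher and 1 lower in shFOXA2, against the same 19.2% and 19.8%. TAGLN of this list had 18.5 to 21.4 CPM in shFOXA2 and 37.12 to 45.25 CPM in shNC. Leukocyte markers summed to 31.5 to 40.0 CPM in shFOXA2 and 22.8 to 28.5 CPM in shNC, with MS4A1 at 0. Muscle markers, from the tissue with its own subunit isoforms, summed to 3.22 to 10.1 CPM in shFOXA2 and 1.99 to 3.14 CPM in shNC. In shFOXA2 replicate 1, ACTA2 of the fibroblast list had 23.6 CPM and the muscle marker ACTC1 7.31 CPM. The other hairpin libraries had 1.21 to 2.17 CPM of ACTA2 and 0 to 1.00 CPM of ACTC1. The part of these markers in the results was not tested.

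The first comparison asked how the subunits stood in SW620 with less FOXA2. Of the 89 members, 33 were lower in shFOXA2, 6 were higher and 50 did not pass an adjusted p of 0.05 (edgeR quasi-likelihood test, Benjamini-Hochberg adjustment over 16100 genes). Over all genes tested, 19.8% were lower and 19.2% higher. Without shNC replicate 3, 30 members were lower and 2 higher, with 17.4% of all genes lower and 16.2% higher. Members are well expressed, and all 89 passed the filter on low counts. Among the 8400 genes at least as high as the lowest member, 26.7% were lower and 26.5% higher, against 37.1% lower and 6.74% higher among the members.

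Most shifts were modest in size. In absolute terms the log2 fold change had a median of 0.21 over the called members and 0.36 over all called genes, and 23 of the 33 falls were smaller than 1.25-fold. Of the 89 members, 62 had a log2 fold change below 0, and the median over members was -0.09, against 0.01 over all tested genes. The 3 shFOXA2 values did not overlap the 3 shNC values for 50 of the 89 members, while 48.7% of all tested genes had groups apart. The plot of members by complex shows each log2 fold change with its SE.

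Complex I, the NADH dehydrogenase, held most of the members that fell, and 44 of the 89 members belong to it. Of its 37 nuclear members 18 were lower, 1 was higher and 18 did not pass, with a median log2 fold change of -0.15. As shares, 48.65% were lower and 2.70% higher, against 26.7% and 26.5% of genes at least as high as the lowest member. Summed over the 37 nuclear members, the level was 2769, 2705 and 2572 CPM in shFOXA2, against 2995, 2929 and 2940 CPM in shNC. All 3 shFOXA2 sums lay below all 3 shNC sums, and the ratio of their means was 0.908. The sum of shFOXA2 replicate 1 includes NDUFB6 at 171 CPM, against 54.6 and 53.9 CPM of that gene in replicates 2 and 3.

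The largest fall of all members was that of NDUFA6, an accessory subunit of the LYR motif family (chromosome 22, 42085525 to 42090955 on the minus strand of GRCh38). It had 33.8, 34.4 and 34.1 CPM in shFOXA2, against 55.6, 49.4 and 53.9 CPM in shNC. Here the groups were far apart, with 34.1 ± 0.29 CPM in shFOXA2 and 53.0 ± 3.19 CPM in shNC (SD, n = 3 each). That is 1.55-fold lower (log2 fold change -0.64, SE 0.07, edgeR adjusted p = 5.8e-10), the only fall above 1.5-fold among the 33.

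NDUFA11, an accessory subunit embedded in the inner membrane (chromosome 19, 5891276 to 5904006, minus strand), followed. Its values were 56.1, 54.3 and 53.6 CPM in shFOXA2, against 78.2, 80.7 and 83.5 CPM in shNC, 1.48-fold lower (log2 fold change -0.56, SE 0.06, edgeR adjusted p = 4.49e-11). NDUFA8, an accessory subunit on the intermembrane side (chromosome 9, 122144058 to 122159819, minus strand), had 57.0, 58.0 and 48.2 CPM in shFOXA2, against 80.4, 70.9 and 75.4 CPM in shNC. Its log2 fold change was -0.48 (SE 0.06, edgeR adjusted p = 2.95e-07). Neither gene's groups overlapped.

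NDUFS5, another accessory subunit of the intermembrane side, was lower by less. It had 64.6, 68.9 and 60.9 CPM in shFOXA2, against 81.5, 78.3 and 72.4 CPM in shNC (log2 fold change -0.26, SE 0.06, edgeR adjusted p = 0.000335). NDUFA12, an accessory subunit of the matrix arm, had 42.7, 40.3 and 41.5 CPM in shFOXA2, against 48.5, 46.4 and 49.6 CPM in shNC. Its fall of 0.21 on the log2 scale (SE 0.07, edgeR adjusted p = 0.0107) just missed the threshold without shNC replicate 3 (adjusted p = 0.0529).

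The falls reached the catalytic core. Of the 7 nuclear core subunits, which carry the flavin, the iron-sulfur clusters or the quinone site, 4 were lower and 0 were higher. Of the 30 accessory subunits 14 were lower and 1 higher. Among genes at least as high as the lowest member, 26.7% were lower and 26.5% higher. NDUFV1, which binds NADH and the flavin, had 127, 132 and 128 CPM in shFOXA2, against 176, 177 and 172 CPM in shNC (log2 fold change -0.44, SE 0.05, edgeR adjusted p = 1.26e-10). Its groups did not overlap, and it was named after its values were seen.

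NDUFA4 was the only nuclear member counted under complex I to rise. The symbol groups it there, although the protein is now known as a subunit of complex IV. It had 166, 186 and 165 CPM in shFOXA2, against 160, 159 and 155 CPM in shNC (log2 fold change 0.12, SE 0.05, edgeR adjusted p = 0.0353). The call was fragile. It did not pass without shFOXA2 replicate 2 (log2 fold change 0.07, adjusted p = 0.31), without shNC replicate 1 (0.12, adjusted p = 0.0563), without shNC replicate 2 (0.13, adjusted p = 0.0712) or without shNC replicate 3 (0.11, adjusted p = 0.134).

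A different pattern was seen for NDUFB6, an accessory subunit of the membrane arm, which was singled out after its values were seen. It had 171, 54.6 and 53.9 CPM in shFOXA2, against 52.2, 52.3 and 54.6 CPM in shNC. Only shFOXA2 replicate 1 was high. The log2 fold change was 0.85 (SE 0.57, edgeR adjusted p = 0.334) and was 0.03 without that library. SDHB of complex II, also chosen after its values were seen, was likewise high only there, with 139, 96.2 and 95.9 CPM in shFOXA2, against 98.5, 90.0 and 92.9 CPM in shNC. ATP5E of complex V, chosen in the same way, was highest there too. It had 286, 230 and 226 CPM in shFOXA2, against 219, 219 and 214 CPM in shNC. Its log2 fold change of 0.19 (edgeR adjusted p = 0.188) was 0.07 without that library. It passed in some other settings, such as without shFOXA2 replicate 3 (edgeR adjusted p = 0.037).

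**Figure D1:**
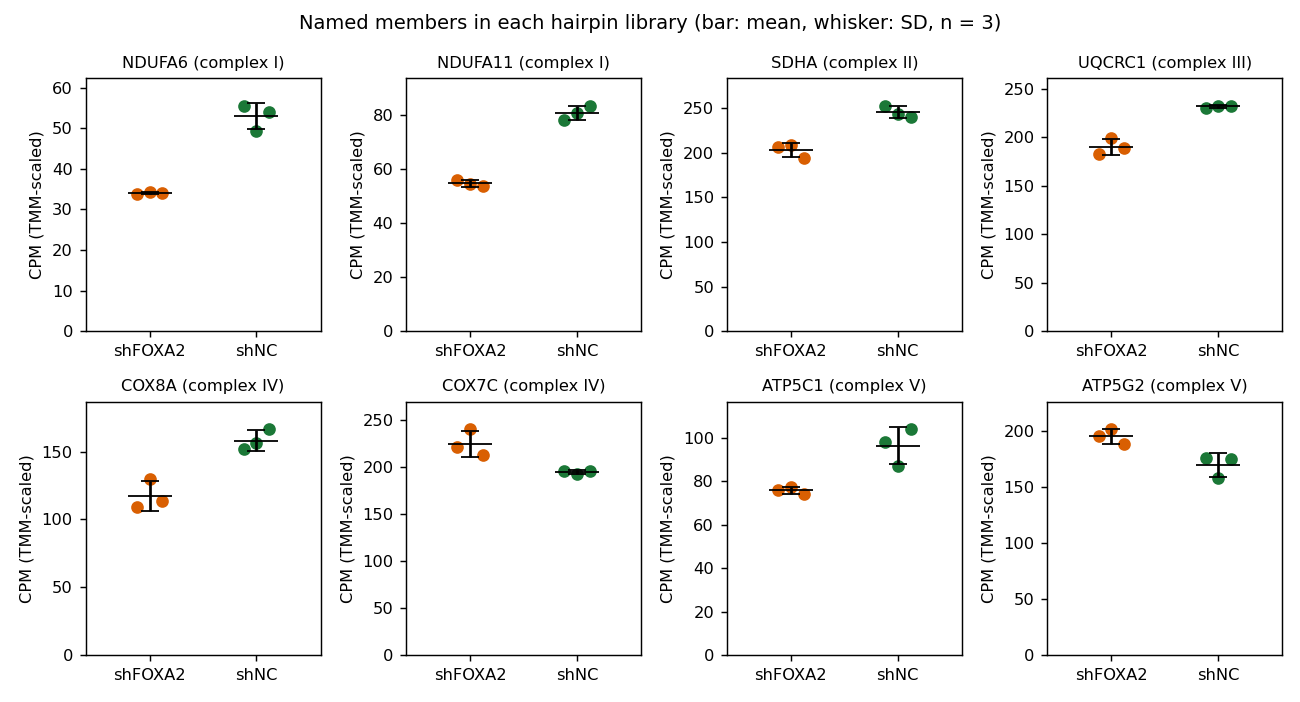
Level in CPM of 8 named members in each of the 3 shFOXA2 and 3 shNC libraries, with the mean as a bar and the SD as whiskers, on axes that start at 0. NDUFA6, NDUFA11, SDHA, UQCRC1, COX8A and ATP5C1 are lower in every shFOXA2 library, and COX7C and ATP5G2 are higher in every shFOXA2 library.

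Complex II, succinate dehydrogenase, is also an enzyme of the citric acid cycle. Of its 4 members 2 were lower and 0 higher, against 26.7% and 26.5% of genes at least as high as the lowest member. SDHA, the flavoprotein that oxidises succinate (chromosome 5, 218241 to 256700, plus strand), had 206, 208 and 194 CPM in shFOXA2, against 253, 244 and 241 CPM in shNC. The groups were apart, and the fall was 0.28 on the log2 scale (SE 0.04, edgeR adjusted p = 1.37e-06).

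SDHC, a membrane anchor that binds the haem and the quinone with SDHD, had 77.5, 88.7 and 86.3 CPM in shFOXA2, against 94.5, 87.3 and 97.5 CPM in shNC. These values overlapped, and the fall of 0.15 (log2, SE 0.05, edgeR adjusted p = 0.0255) did not pass without shFOXA2 replicate 1 (log2 fold change -0.09, adjusted p = 0.265) or without shNC replicate 3 (-0.12, adjusted p = 0.146). SDHD, the other anchor, had 131, 122 and 125 CPM in shFOXA2, against 128, 121 and 121 CPM in shNC, a log2 fold change of 0.03 (edgeR adjusted p = 0.671). SDHB, the iron-sulfur subunit, had a log2 fold change of 0.25 (edgeR adjusted p = 0.375) and of 0.03 without shFOXA2 replicate 1.

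Complex III, the cytochrome bc1 complex, passes electrons from ubiquinol to cytochrome c. Of 9 nuclear members 6 were lower and 0 were higher, against 26.7% and 26.5% of genes at least as high as the lowest member. All 9 had a log2 fold change below 0, and the median was -0.17. The sum over the 9 genes was 973, 1027 and 937 CPM in shFOXA2, against 1105, 1069 and 1082 CPM in shNC. These sums did not overlap, and the ratio of means was 0.902.

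UQCRC1, a core protein on the matrix side (chromosome 3, 48599002 to 48610976, minus strand), had 182, 199 and 189 CPM in shFOXA2, against 230, 233 and 233 CPM in shNC. Every shFOXA2 value was lower, by 0.29 on the log2 scale (SE 0.04, edgeR adjusted p = 7.58e-07). UQCR11, a small membrane subunit, had 90.2, 98.7 and 82.8 CPM in shFOXA2, against 105, 109 and 102 CPM in shNC (log2 fold change -0.22, SE 0.05, edgeR adjusted p = 0.000755). UQCR10, another small subunit, had 53.3, 57.0 and 54.1 CPM in shFOXA2, against 61.0, 64.7 and 65.1 CPM in shNC (log2 fold change -0.22, SE 0.06, edgeR adjusted p = 0.00293).

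Among the electron-carrying subunits, CYC1, cytochrome c1, had a log2 fold change of -0.20 (edgeR adjusted p = 0.00149; named after its values were seen). UQCRFS1, the Rieske iron-sulfur protein, had 88.1, 103 and 90.7 CPM in shFOXA2, against 110, 105 and 99.0 CPM in shNC. Its groups overlapped, and its fall of 0.17 (log2, SE 0.05, edgeR adjusted p = 0.0132) did not pass without shFOXA2 replicate 1 (log2 fold change -0.12, adjusted p = 0.115) or without shFOXA2 replicate 3 (-0.16, adjusted p = 0.0595). UQCRQ, the quinone-binding small subunit with the highest level per length in the complex, had 121, 118 and 104 CPM in shFOXA2, against 132, 123 and 128 CPM in shNC. Its fall of 0.16 (log2, SE 0.05, edgeR adjusted p = 0.0118) was 0.10 without shFOXA2 replicate 3 (adjusted p = 0.141). UQCRH, the hinge protein between cytochrome c1 and cytochrome c, had a log2 fold change of -0.02 (edgeR adjusted p = 0.836).

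Complex IV, cytochrome c oxidase, did not shift one way. Of 11 nuclear members 2 were lower (18.2%), 1 was higher (9.09%) and 8 did not pass, with a median log2 fold change of 0.04. Among genes at least as high as the lowest member the shares were 26.7% lower and 26.5% higher. The sum over the 11 genes was 1273, 1317 and 1220 CPM in shFOXA2, against 1304, 1255 and 1283 CPM in shNC, and these overlapped. COX8A, a small membrane subunit (chromosome 11, 63974607 to 63976543, plus strand), had 109, 130 and 114 CPM in shFOXA2, against 152, 156 and 167 CPM in shNC. The gene was 1.35-fold lower (log2 fold change -0.43, SE 0.05, edgeR adjusted p = 1.49e-07), with groups apart.

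COX6B1, which sits on the intermembrane side between the monomers of the enzyme, had 72.8, 72.5 and 71.6 CPM in shFOXA2, against 85.8, 83.4 and 86.9 CPM in shNC (log2 fold change -0.24, SE 0.05, edgeR adjusted p = 0.000209). COX7C, a small membrane subunit (chromosome 5, 86617904 to 86620962, plus strand), went the other way. It had 221, 240 and 213 CPM in shFOXA2, against 196, 193 and 196 CPM in shNC, a rise of 0.20 on the log2 scale (SE 0.05, edgeR adjusted p = 0.000311), and the groups did not overlap. COX7A2L, which is known to join complexes III and IV in supercomplexes, had a log2 fold change of 0.10 (edgeR adjusted p = 0.131).

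Complex V, the ATP synthase, was much like complex IV in its counts. Of 15 nuclear members 2 were lower (13.3%), 1 was higher (6.67%) and 12 did not pass, with a median log2 fold change of -0.01. Genes at least as high as the lowest member were lower in 26.7% and higher in 26.5%. The sum over the 15 nuclear members was 2789, 2832 and 2639 CPM in shFOXA2, against 2765, 2661 and 2703 CPM in shNC, again overlapping. ATP5C1, the gamma subunit of the rotating shaft (chromosome 10, 7788129 to 7807815, plus strand), had 75.8, 77.4 and 74.1 CPM in shFOXA2, against 98.3, 87.2 and 104 CPM in shNC. It was 1.27-fold lower (log2 fold change -0.35, SE 0.06, edgeR adjusted p = 2.44e-06).

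ATP5I, the membrane subunit e, had 66.0, 71.2 and 66.4 CPM in shFOXA2, against 82.7, 77.6 and 74.2 CPM in shNC (log2 fold change -0.21, SE 0.06, edgeR adjusted p = 0.00258). ATP5G2, a gene for subunit c of the proton-driven ring, had 196, 201 and 188 CPM in shFOXA2, against 176, 157 and 175 CPM in shNC, a rise of 0.20 (log2, SE 0.05, edgeR adjusted p = 0.000525). Subunit c has further genes, ATP5G1 (log2 fold change -0.08, edgeR adjusted p = 0.344) and ATP5G3 (-0.01, adjusted p = 0.86), which did not pass. ATP5B, the catalytic beta subunit, had 752, 792 and 749 CPM in shFOXA2, against 746, 726 and 737 CPM in shNC (log2 fold change 0.05, edgeR adjusted p = 0.319). The groups of ATP5B did not overlap, but the difference did not pass.

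Across complexes I to III, 26 of 50 nuclear members (52%) were lower and 1 (2%) was higher (median -0.15). Across complexes IV and V 4 of 26 (15.4%) were lower and 2 (7.69%) higher (median 0.01). Genes at least as high as the lowest member had 26.7% lower and 26.5% higher. No test was made of the difference between complexes I to III and complexes IV and V. Leaving out replicate 1 of both groups, a choice made after seeing the data, gave 27 lower and 8 higher among all 89 members, with 33 of the 39 calls kept, and 18.4% of all genes lower and 17.7% higher. As a share of all counts, the 76 nuclear members took 0.828%, 0.826% and 0.785% in shFOXA2, against 0.859%, 0.849% and 0.867% in shNC, so the groups did not overlap. In bulk libraries such as these, fewer cells of a kind and less RNA per cell cannot be told apart.

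Some members share reads or positions with other annotated genes. In GENCODE v29, 28 members have an exon that overlaps a gene on the same strand and 32 one that overlaps a gene on the opposite strand. NDUFA6, for one, overlaps NDUFA6-DT on the opposite strand, and ATP5J2 overlaps PTCD1 on its own strand. The library kit keeps strand, and use of strand in counting is not stated in the sources used here. NDUFA7, NDUFB8, SDHD and UQCR11 each had 2 entries in the tables, and the one with the larger sum was used.

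Promoter sequences were read from RefSeq to show what lies at the start of the gene with the largest fall in each complex. Each run covers 250 bases before to 50 bases after the listed start on GRCh38.p14, 5′ to 3′ on the gene's strand. Capitals mark matches to motif letters searched on both strands, namely GCATGCGC for nuclear respiratory factor NRF1, CCGGAAG for ETS factors such as GABPA, AAGATGGCG for YY1 and TGTTTAC for FOXA factors. The regions are chr22:42090723-42091022 on the minus strand for NDUFA6, chr5:218070-218369 on the plus strand for SDHA, chr3:48609597-48609896 on the minus strand for UQCRC1, chr11:63974370-63974669 on the plus strand for COX8A and chr10:7787927-7788226 on the plus strand for ATP5C1.
NDUFA6: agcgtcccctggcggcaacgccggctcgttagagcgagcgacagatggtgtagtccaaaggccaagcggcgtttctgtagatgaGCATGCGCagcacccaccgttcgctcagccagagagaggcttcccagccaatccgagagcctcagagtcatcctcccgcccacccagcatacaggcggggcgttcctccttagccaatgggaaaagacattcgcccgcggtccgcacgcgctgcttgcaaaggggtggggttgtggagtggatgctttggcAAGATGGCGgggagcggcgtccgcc
SDHA: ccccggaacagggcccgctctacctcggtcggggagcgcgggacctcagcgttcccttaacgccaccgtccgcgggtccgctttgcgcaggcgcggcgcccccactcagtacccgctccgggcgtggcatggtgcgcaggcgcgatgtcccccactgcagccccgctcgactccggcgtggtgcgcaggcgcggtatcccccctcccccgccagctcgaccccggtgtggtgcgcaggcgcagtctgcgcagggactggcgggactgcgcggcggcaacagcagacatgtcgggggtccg
UQCRC1: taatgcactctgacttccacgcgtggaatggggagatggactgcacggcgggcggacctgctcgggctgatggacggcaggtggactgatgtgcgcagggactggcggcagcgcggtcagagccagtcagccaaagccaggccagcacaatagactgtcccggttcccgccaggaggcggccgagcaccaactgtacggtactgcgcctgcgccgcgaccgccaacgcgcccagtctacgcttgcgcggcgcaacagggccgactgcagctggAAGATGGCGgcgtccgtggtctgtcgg
COX8A: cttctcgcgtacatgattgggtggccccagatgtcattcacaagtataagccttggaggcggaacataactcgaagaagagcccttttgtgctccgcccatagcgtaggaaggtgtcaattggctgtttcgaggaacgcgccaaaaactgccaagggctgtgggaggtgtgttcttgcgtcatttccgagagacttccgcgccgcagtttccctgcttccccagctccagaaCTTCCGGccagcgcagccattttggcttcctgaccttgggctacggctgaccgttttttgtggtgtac
ATP5C1: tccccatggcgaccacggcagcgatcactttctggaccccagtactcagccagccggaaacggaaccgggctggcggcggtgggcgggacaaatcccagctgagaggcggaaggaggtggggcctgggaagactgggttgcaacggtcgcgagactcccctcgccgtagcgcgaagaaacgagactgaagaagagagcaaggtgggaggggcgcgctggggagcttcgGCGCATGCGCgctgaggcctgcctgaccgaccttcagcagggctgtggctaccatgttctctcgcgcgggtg
In NDUFA6 the NRF1 letters begin at position -166 from the start site and the YY1 letters at 26. UQCRC1 holds the YY1 letters at position 24. COX8A holds the reverse complement of the ETS letters at position -18. In ATP5C1 overlapping NRF1 matches on the opposite strands begin at -22 and -20, and the SDHA window holds none of these letters.

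RefSeq promoters matched 62 of the 76 nuclear members. The NRF1 letters stood in 14 of them (22.6%), against 6.11% of the 11212 tested genes with a promoter. The shares for YY1 were 14.5% of members and 4.45% of tested genes, and for ETS factors 32.3% and 21.5%. The FOXA letters were found in 1 member promoter (1.61%), against 3.55% of tested genes. Among the 25 matched members that were lower, 5 held the NRF1 letters, 7 the ETS letters, 5 the YY1 letters and 0 the FOXA letters. Among the 35 that did not pass, the counts were 8, 13, 4 and 1. Among the 2 that were higher, they were 1, 0, 0 and 0, with the NRF1 letters in ATP5G2. A letter match is a description of these windows and says nothing of binding.

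The hairpin itself can pair with other transcripts through a short stretch. The search below covered only part of its target, and matches to the rest were not counted. The target of FOXA2-shRNA1, as the labels give it, is shown with the stretch searched in capitals, positions 11 to 18 counted from 1 at the 5′ end, and below it stand stretches from the 3′ UTRs of the members that hold 7 of these bases.
Hairpin target: gaacggcatgAACACGTAcat
NDUFS1: gtaagaaaaatACACGTAgatgagagtaa
UQCR11: acaagtcacccACACGTAgtggcttaaag
NDUFA10: cttataacagcAACACGTgtgtgactcga
NDUFB5: cagacacacagACACGTAcacacacacac
Such a match was present in 4 of 76 nuclear members (5.26%) and in 5.89% of 12929 tested genes with a 3′ UTR in GENCODE v29. NDUFS1, UQCR11 and NDUFA10 were among the lower members and NDUFB5 was not. The median log2 fold change was -0.16 over the 4 members with a match and -0.10 over those without, and -0.08 and 0.02 over all tested genes with and without one. Without the 4 genes, 27 of 72 nuclear members were lower and 3 were higher. Over all tested genes without a match, 2525 of 12167 were lower and 2708 were higher. The part of such matches in the falls was not tested.

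The 13 genes of the mitochondrial genome split both ways. There were 3 higher (23.1%), 3 lower (23.1%) and 7 that did not pass, with a median log2 fold change of -0.04. Both shares were near those of genes at least as high as the lowest member, 26.5% higher and 26.7% lower. Each called change was under 1.25-fold. In every one of the 13 genes shNC replicate 1 was the highest of the shNC libraries, and in every one the SD was smaller in shFOXA2 than in shNC.

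Those that rose were MT-CO1, MT-ND5 and MT-ND6. MT-CO1, the catalytic subunit of complex IV, had 9619, 10011 and 9805 CPM in shFOXA2, against 9530, 8533 and 8270 CPM in shNC (log2 fold change 0.16, SE 0.05, edgeR adjusted p = 0.0039). MT-ND5, a proton-pumping subunit of complex I, had 2169, 2160 and 2143 CPM in shFOXA2, against 2074, 1960 and 1861 CPM in shNC (log2 fold change 0.13, SE 0.04, edgeR adjusted p = 0.00859). MT-ND6, the only subunit gene on the light strand, had 618, 614 and 598 CPM in shFOXA2, against 589, 531 and 514 CPM in shNC (log2 fold change 0.16, SE 0.04, edgeR adjusted p = 0.00292). In each of these the groups did not overlap.

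All 3 of these calls were lost without shNC replicate 3, at log2 fold changes of 0.12 for MT-CO1 (adjusted p = 0.0705), 0.09 for MT-ND5 (adjusted p = 0.122) and 0.12 for MT-ND6 (adjusted p = 0.0642). The call of MT-ND5 was also lost without shFOXA2 replicate 1 (0.13, adjusted p = 0.052). Because MT-ND6 lies opposite the other genes and strand use in counting is not known, reads of the opposite strands cannot be told apart there.

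Those that fell were MT-ND2, MT-ND3 and MT-ATP8. MT-ND3, a small complex I subunit, had 413, 415 and 420 CPM in shFOXA2, against 504, 464 and 448 CPM in shNC (log2 fold change -0.18, SE 0.04, edgeR adjusted p = 0.000668), and the call held with any library left out. MT-ND2, a membrane subunit of complex I, had 2854, 2938 and 2956 CPM in shFOXA2, against 3356, 3108 and 3009 CPM in shNC (log2 fold change -0.11, SE 0.04, edgeR adjusted p = 0.0271). It did not pass without shFOXA2 replicate 1 (-0.10, adjusted p = 0.165) or without shNC replicate 1 (-0.08, adjusted p = 0.0749).

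MT-ATP8, a small subunit of complex V whose gene overlaps MT-ATP6, had 494, 462 and 455 CPM in shFOXA2, against 601, 501 and 509 CPM in shNC (log2 fold change -0.19, SE 0.07, edgeR adjusted p = 0.0469). It did not pass without shFOXA2 replicate 2 (-0.18, adjusted p = 0.198) or replicate 3 (-0.18, adjusted p = 0.129), and without shNC replicate 1 its log2 fold change was -0.12. The remaining genes lay between -0.06 and 0.06 on the log2 scale. They were MT-ND1 (0.06), MT-ND4 (0.05), MT-ATP6 (-0.01), MT-CO3 (-0.04), MT-CO2 (-0.04), MT-CYB (-0.06) and MT-ND4L (-0.06), the last of which overlaps MT-ND4.

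The order of these changes went along with gene length. The shortest genes, MT-ATP8, MT-ND4L and MT-ND3, had log2 fold changes below 0, and the longest, MT-ND5 and MT-CO1, were above 0. Spearman's rho between listed length and log2 fold change was 0.538 over the 13 genes, 0.734 over the 12 without MT-ND6 and 0.167 over the 76 nuclear members. These points come from the same libraries and the mitochondrial genes from shared precursors, so the values are a description only. The same rho for SW620 over SW480 was 0.527 over the 13 genes and 0.462 without MT-ND6.

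**Figure D2:**
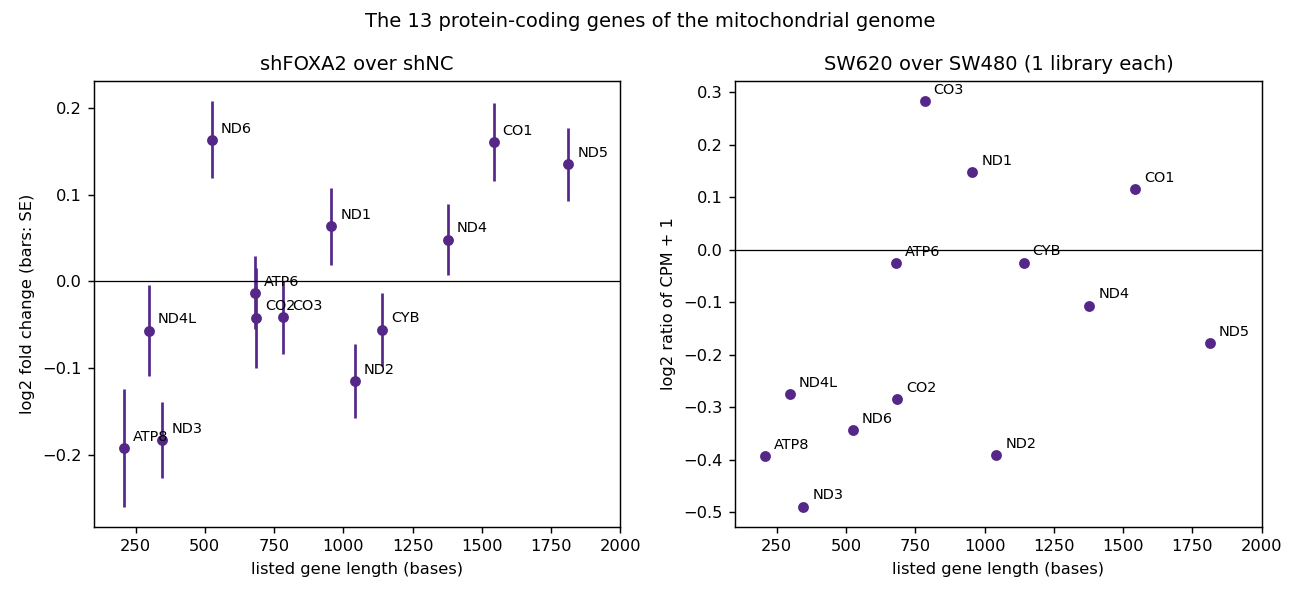
Log2 fold change of shFOXA2 over shNC (left, bars are SE, 3 against 3 libraries) and log2 ratio of SW620 over SW480 (right, 1 library each) against listed gene length in bases, for the 13 mitochondrial genes named without their prefix. Short genes such as ATP8 and ND3 sit low in both panels, and ND6 sits high on the left and low on the right.

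As a whole, mitochondrial members took 3.82%, 3.88% and 3.90% of counts in shFOXA2, against 4.03%, 3.75% and 3.68% in shNC, so the groups overlapped. Counts of the 13 mitochondrial members over those of the 76 nuclear members gave ratios of 4.62, 4.70 and 4.97 in shFOXA2, against 4.69, 4.41 and 4.25 in shNC, and these overlapped too. Mitochondrial rRNA took 0.747%, 0.753% and 0.763% in shFOXA2, against 0.695%, 0.712% and 0.689% in shNC, without overlap. In the untreated lines rRNA took 5.33% in SW620 and 5.86% in SW480. Hairpin and untreated libraries were set side by side only in such levels, with no test.

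**Figure D3:**
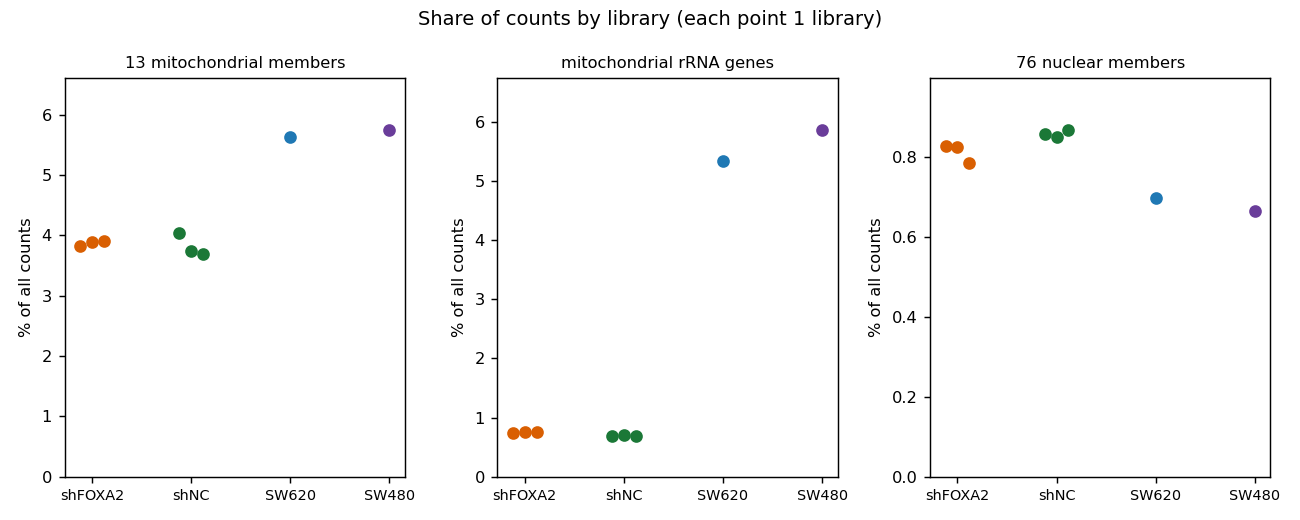
Share of all counts, in percent, taken by the 13 mitochondrial members, the mitochondrial rRNA genes and the 76 nuclear members, with each point 1 library and axes that start at 0. Nuclear members take less in every shFOXA2 library than in any shNC library, and rRNA takes over 5% only in the untreated lines.

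Levels per length, as RPKM (counts scaled by length and depth) with TMM scaling over all 8 libraries, set the genomes apart. Mitochondrial members ran from 1138 RPKM for MT-ND6 to 6662 RPKM for MT-ATP6 in the mean of shFOXA2, and from 1038 to 6867 RPKM for the same genes in the mean of shNC. The order differed in the untreated lines, where MT-ATP8 was highest, with 9937 RPKM in SW620 and 13200 RPKM in SW480, against 2226 RPKM in shFOXA2 and 2597 RPKM in shNC. In both hairpin means and both untreated libraries the highest nuclear member was ATP5B, followed by COX8A, and the lowest was NDUFS7. ATP5B had 330 RPKM in shFOXA2 and 325 RPKM in shNC, and 241 RPKM in SW620 and 307 RPKM in SW480. COX8A had 227 ± 20.6 RPKM in shFOXA2 and 312 ± 15.1 RPKM in shNC (SD, n = 3 each), 236 RPKM in SW620 and 183 RPKM in SW480. The listed length covers every exon of a gene, so genes with long untranslated exons come out low.

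The second comparison set untreated SW620 beside untreated SW480, with 1 library each and therefore no test and no replicate check. Intervals below are exact 95% intervals for counting error only. Of the 89 members 5 were at least 1.5-fold higher in SW620, 5 were at least 1.5-fold lower and 79 lay within, counted on ratios of CPM + 1. Ratios printed below are of CPM with no pseudocount. Over 21343 genes, 16.7% were that much higher and 17.5% lower, and among the 9669 genes at least as high as the lowest member, 17.7% and 18.3%. The median log2 ratio was 0.09 over nuclear members, -0.18 over mitochondrial members and 0.02 over all genes.

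COX7C stood highest, with 22238 counts in SW620 and 7541 in SW480, a ratio of 2.15 (2.09 to 2.21) after scaling. SDHA had 26591 counts in SW620 and 9253 in SW480, a ratio of 2.09 (2.04 to 2.14). NDUFS5, with 6412 counts in SW620 and 3023 in SW480, had a ratio of 1.54 (1.48 to 1.61). The others past the threshold were NDUFA5, with a ratio of 1.54, and NDUFS8, with 1.53. ATP5G2 lay at the edge, with a ratio of 1.5 (1.46 to 1.55) that fell just short of the threshold once the pseudocount was added. UQCRH, the highest of complex III, had a ratio of 1.27 (1.23 to 1.32).

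Lowest in SW620 was NDUFA12, with 3308 counts in SW620 and 6175 in SW480, a ratio of 0.39 (0.374 to 0.407), which is 2.56-fold higher in SW480. ATP5J2, the membrane subunit f of the ATP synthase, had 15415 counts in SW620 and 18345 in SW480, a ratio of 0.612 (0.599 to 0.625). NDUFA9 (0.596), NDUFC1 (0.639) and COX7A2L (0.66) were the others past the threshold. The ratio of SDHD, the lowest of complex II, was 0.806 (0.782 to 0.831), and that of UQCRFS1, the lowest of complex III, was 0.857 (0.828 to 0.887).

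**Figure D4:**
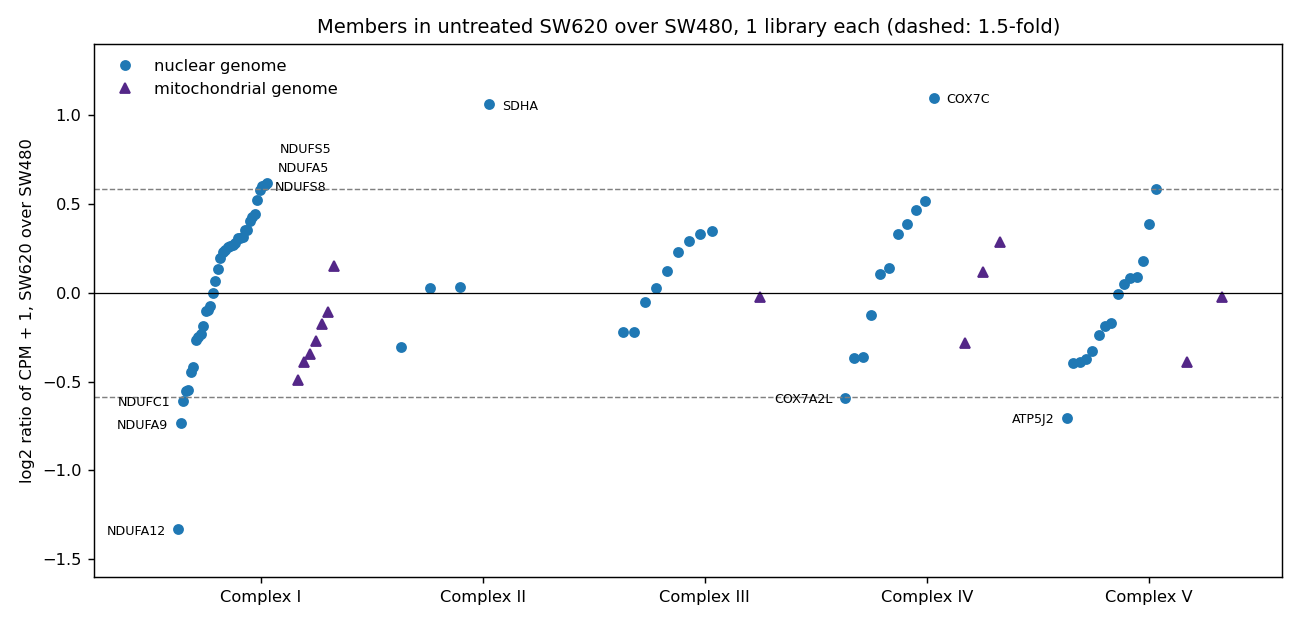
Log2 ratio of CPM + 1 in untreated SW620 over untreated SW480 for each member, by complex, with circles for nuclear and triangles for mitochondrial genes and 1 library per line. The 5 members above and the 5 below the dashed lines at 1.5-fold are named, and complexes I and IV hold most of them.

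Within complexes the members did not move as a block. Complex I nuclear members ranged from -1.33 to 0.62 on the log2 scale (median 0.23), complex IV from -0.59 to 1.10 (median 0.14) and complex V from -0.70 to 0.58 (median -0.17). As summed CPM, complex II had 498 in SW620 and 374 in SW480, a ratio of 1.33 that rests on SDHA, since the ratios of its other members were 0.806 to 1.02. Complex IV nuclear members summed to 1042 CPM in SW620 and 890 CPM in SW480, and those of complex V to 2187 CPM in SW620 and 2475 CPM in SW480.

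The mitochondrial genes all lay within 1.5-fold, from a log2 ratio of -0.49 for MT-ND3 to 0.28 for MT-CO3. The 13 together took 5.63% of counts in SW620 and 5.74% in SW480, and their counts over those of the nuclear members were 8.07 in SW620 and 8.63 in SW480.

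The 2 comparisons share no library. Of the 76 nuclear members, 33 had the same sign in both, and Spearman's rho between them was -0.07. Of the 13 mitochondrial members 9 had the same sign, and rho was 0.527, or 0.713 without MT-ND6. These values are descriptions. COX7C was higher in shFOXA2 and higher in SW620, SDHA was lower in shFOXA2 and higher in SW620, and NDUFA12 was lower in both.

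Genes around the respiratory chain were read from lists chosen by function. Assembly factors, which build the complexes without staying in them, had 43 genes tested, of which 11 were lower and 2 higher in shFOXA2 (median log2 fold change -0.06). The share lower was near the 26.7% of genes at least as high as the lowest member, and 26.5% of those were higher. TTC19, a factor of complex III, had 84.5 ± 0.54 CPM in shFOXA2 and 125 ± 2.14 CPM in shNC (SD, n = 3 each), a fall of 0.56 (log2, SE 0.05, edgeR adjusted p = 2.48e-13). TMEM70, a factor of the ATP synthase, fell by 0.53 on the log2 scale (edgeR adjusted p = 6.14e-08), and SCO1, a copper chaperone of complex IV, by 0.31 (adjusted p = 8.14e-05).

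Genes that express and maintain the mitochondrial genome had 9 higher and 4 lower of 25 tested (median 0.10), where 26.5% of genes at least as high as the lowest member were higher and 26.7% lower. TRMT10C, a subunit of the mitochondrial RNase P that cuts tRNAs out of the precursors, had 39.8 ± 1.80 CPM in shFOXA2 and 75.1 ± 1.31 CPM in shNC (SD, n = 3 each), a fall of 0.92 (log2, SE 0.06, edgeR adjusted p = 2.67e-16). HSD17B10, another subunit of that enzyme, rose by 0.24 (log2, edgeR adjusted p = 0.000249), and POLRMT, the mitochondrial RNA polymerase, fell by 0.43 (adjusted p = 7.64e-09). The others that fell were POLG, by 0.20, and SUPV3L1, by 0.17, named after their values were seen. TFAM, the mitochondrial DNA packaging and transcription factor, had 339 CPM in shFOXA2 and 342 CPM in shNC.

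Nuclear regulators of mitochondrial genes had 5 higher and 1 lower of 15 tested (median 0.13), against the same 26.5% and 26.7%. The lower gene was NRF1 itself, with 19.3 ± 1.63 CPM in shFOXA2 and 26.1 ± 1.44 CPM in shNC (SD, n = 3 each), a fall of 0.43 on the log2 scale (SE 0.09, edgeR adjusted p = 0.000165). PPARD rose by 0.31 (log2, edgeR adjusted p = 0.00397) and ESRRA, a nuclear receptor of energy metabolism, by 0.17 (adjusted p = 0.00653). The coactivator PPARGC1A had 9.90 CPM in shFOXA2 and 9.46 CPM in shNC, and 718 counts in SW620 and 58 in SW480.

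Citric acid cycle and pyruvate dehydrogenase genes had 3 higher and 2 lower of 17 (median 0.00), against 26.5% and 26.7%. SUCLG1, of succinyl-CoA ligase, had 36.7 ± 1.98 CPM in shFOXA2 and 65.9 ± 1.41 CPM in shNC (SD, n = 3 each), a fall of 0.85 (log2, edgeR adjusted p = 1.94e-14). PDHX, of the pyruvate dehydrogenase complex, had 80.3 ± 3.92 CPM in shFOXA2 and 47.8 ± 1.29 CPM in shNC, a rise of 0.75 (log2, edgeR adjusted p = 4.11e-14), and CS, citrate synthase, rose by 0.27 (adjusted p = 3.85e-06). Tissue isoforms and further proteins of the chain had 2 higher and 1 lower of 7 tested (median -0.02), against 26.5% and 26.7%, with CYCS, cytochrome c, up by 0.11 (log2, edgeR adjusted p = 0.0299), USMG5, a small ATP synthase protein, up by 0.28 (adjusted p = 3.41e-06) and NDUFA4L2, a low-level paralog of NDUFA4, lower by a log2 fold change of -0.93 (adjusted p = 0.0182). The tissue isoforms COX4I2, COX6A2, COX7B2 and COX8C had 2, 0, 0 and 0 counts in SW620 and 2, 6, 2 and 0 counts in SW480. COX7A1 had 89 counts in SW620 and 58 in SW480, and COX6B2 had 73 in SW620 and 136 in SW480.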

How the data were processed

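Counts per gene were deposited by the authors for 42713 entries per library, with a listed length and RPKM. The authors' RPKM equal the deposited counts scaled by that length and the table's total, in 100% of genes that had more than 20 counts, to within 1e-04 in relative terms. HOMER and hg19 stand in the submitters' processing notes with no role, and no source used here gives the aligner or annotation. An item that entered the counts and fits is not reported here. Members, lists and the rule for named genes were chosen with earlier results of these data known.

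The hairpin groups were compared, 3 against 3, with the robust edgeR 4.0.16 quasi-likelihood test (R 4.3.3, two-sided), TMM scaling, the filterByExpr default, and adjustment by Benjamini-Hochberg at 0.05 over all genes. The biological coefficient of variation was 6.59%. The untreated lines were compared as log2 ratios of TMM-scaled CPM after adding a pseudocount of 1, where the higher library had 20 counts or more. Genes were named as the 13 mitochondrial members, up to 3 largest called rises and falls per complex, the highest in RPKM per complex, the highest and lowest in SW620 over SW480 per complex with at least 100 counts, and up to 3 called genes per related list by p. On simulated data of 16100 genes the hairpin test recovered 19, 30, 41 and 49 of 50 genes changed by 1.25-, 1.5-, 2- and 4-fold, with 7 of 15900 unchanged genes called. A limit of 3 counts was 0.0313 to 0.401 CPM by library. GENCODE v29 on GRCh38 gave positions and 3' UTRs, a build other than that in the notes. Alternatives used DESeq2 1.42.0, limma 3.58.1, other scalings, filters and thresholds, summed repeated symbols, a replicate block and each library left out. Motif searches and plots used Python 3.11.15 with pandas 2.3.3 and matplotlib 3.10.9.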

Additional observations from a re-analysis of the deposited data

How the results depend on the processing

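Of the 39 members called in the hairpin libraries, 32 to 39 were still called under each alternative, with 27 to 39 lower and 2 to 8 higher. Leaving out 1 library in turn gave 2 to 7 members higher and 27 to 37 lower, and the 2 were without shNC replicate 3. The nuclear median was -0.13 to -0.08 with 1 library left out. The replicate numbers do not pair the libraries (correlations of same-numbered deviations 0.03, -0.02 and 0.05), and a fit with them as a replicate block gave 7 members higher and 31 lower. Without the filter on low counts 9.48% of 28457 genes were higher and 12.3% lower, and under the DESeq2 Wald test 15.6% and 16.1%.

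The mitochondrial median log2 fold change of -0.04 was -0.072 without the filter on low counts, -0.074 to 0.018 with 1 library left out, and 0.039 without replicate 1 of both groups. Single log2 fold changes that changed sign lay near 0 and did not pass the test. With 1 library left out, SDHD ran from -0.0028 to 0.049, UQCRH from -0.068 to 0.020, MT-CO2 from -0.091 to 0.035, MT-ATP6 from -0.045 to 0.018, MT-CO3 from -0.074 to -0.0052, MT-CYB from -0.085 to -0.025 and MT-ND4L from -0.11 to 0.011. SDHD was -0.0018 without the filter on low counts. Without replicate 1 of both groups, a choice made after seeing the data, the values were 0.062 for UQCRH, 0.048 for MT-CO2, 0.039 for MT-ATP6, 0.038 for MT-ND4L, 0.012 for MT-CYB and 0.0079 for MT-CO3. The cause was not tested.

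For SW620 over SW480 the mitochondrial median of -0.18 was -0.19 with DESeq2 size factors and -0.13 with total counts, where 3 members were lower by 1.5-fold. At a threshold of 2-fold, 2 members were higher and 1 lower. In the comparison of shFOXA2 with shNC, NDUFA3, the lowest member near 20 CPM, had an SE of 0.09 on the log2 scale, against 0.04 for MT-CYB.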
